A study of Mus musculus with 32 samples.

Results

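The genes described here are 44 genes of the mitotic spindle and of cell division, a set chosen by gene symbol with earlier results of these data known. All 44 had at least 1 probe among the 39429 probes measured on Agilent 1-colour mouse arrays, with 62 probes in all. Whole blood came from 32 male C57BL/6 mice, taken 24 h after X-rays or sham exposure, and each mouse was hybridised to its own array. Wild-type mice (WT) received 0 Gy (n = 6) or 8 Gy (n = 5). Mice homozygous for a disrupted Atm gene (ATM-/-, called Atm here) received 0 Gy (n = 5) or 4 Gy (n = 6), and Scid mice received 0 Gy (n = 5) or 3 Gy (n = 5). The dose therefore differed between genotypes, set to a level of comparable lethality per the design, and genotype and dose cannot be told apart when the 3 responses are set side by side. The RNA of all groups had been depleted of globin transcripts.

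Division genes are transcribed mainly in cells that are preparing for mitosis. Cyclins A and B activate the kinase Cdk1, kinetochore proteins tie chromosomes to the spindle, and the anaphase-promoting complex then marks securin and the mitotic cyclins for destruction so that sister chromosomes can part. Mature leukocytes and mature red cells of the blood do not divide, whereas precursors that enter the blood may still carry such transcripts, among them young reticulocytes, which keep RNA made by their dividing erythroblast parents. ATM is a kinase that signals DNA double-strand breaks, and the Scid mutation affects Prkdc, the catalytic subunit of the kinase that repairs such breaks by end joining.

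The signal set the limit on what could be seen. Testing was limited to probes that stood well above background on 4 or more arrays within any 1 group, and 27 of the 44 members passed, among 15158 genes tested in all. The other 17 were not tested, namely the kinases Aurka, Aurkb, Bub1, Bub1b, Cdk1, Melk, Nek2 and Ttk, the phosphatase Cdc25c, the kinetochore proteins Cenpf, Ndc80 and Nuf2, the motors Kif11 and Kif23, the cytokinesis factor Ect2, the condensin subunit Ncapg and the topoisomerase Top2a. Of these, 5 (Bub1, Bub1b, Cdc25c, Ncapg and Ttk) were not well above background on any of the 32 arrays, and the others on at most 10. By contrast 7 members (Ccna2, Ccnb2, Mki67, Nusap1, Pttg1, Racgap1 and Ube2c) were well above background on all 32 arrays. Of the 27, 5 had 4 or more such arrays in 1 group alone: Anln, Ccnb1, Espl1 and Hmmr in WT 8 Gy and Spc24 in WT 0 Gy. For a member that passed only where it is high, a difference from the other groups is in part set by the filter. In bulk blood, fewer cells of a type and less RNA per cell cannot be told apart.

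Between 8 and 34 of the 44 members were well above background on an array. The number ran from 15 to 30 (median 23.0) in WT 0 Gy, from 27 to 34 (median 29.0) in WT 8 Gy, from 22 to 26 in Atm 0 Gy, from 8 to 30 in Atm 4 Gy, from 10 to 33 in Scid 0 Gy and from 13 to 23 in Scid 3 Gy. Arrays with more probes above background in general also had more members above it. The brightness of the arrays differed between groups too: the 75th percentile of the signal was 127 to 232 on the WT 8 Gy arrays and 24.1 to 202 on the WT 0 Gy arrays, and at most 111 on any Atm or Scid array. Atm and Prkdc themselves could not serve as a check of the genotypes, since both Atm probes and the Prkdc probe were well above background on at most 3 of 32 arrays. The labels do not say which part of a gene is disrupted. In 4 arrays, those of replicate 5 among the WT controls, of replicates 1 and 2 among the irradiated WT mice and of replicate 3 among the irradiated Atm mice, transcripts of liver cells were bright: the log2 summed level of 4 hepatocyte genes reached 9.90, 11.32 and 11.39 in these groups, against group medians of 4.69 to 6.17, so counts are also given without them.

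**Figure D1:**
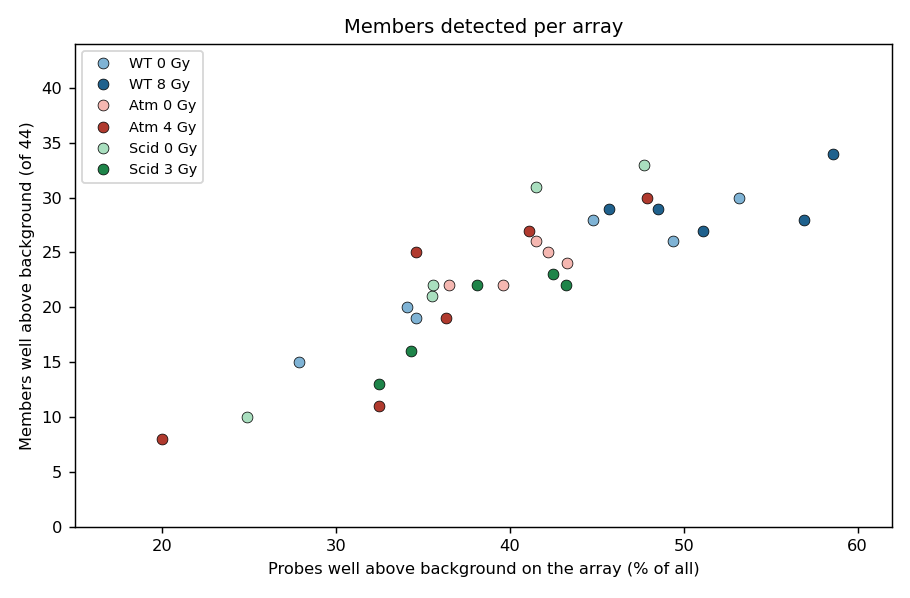
Number of the 44 division genes well above background on each array (vertical axis) against the percentage of all probes well above background on that array (horizontal axis), 1 point per mouse, coloured by group. The count of members was lowest, 8, on the array with the lowest percentage, 20%, and highest, 34, on a WT 8 Gy array with 58.6%.

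Each gene was read through probes of 60 bases. The following 3, for the proliferation marker Mki67, the passenger protein Birc5 and the centromeric histone Cenpa, are shown as examples of what was measured, with positions in build mm9 as the files give them. Those of Mki67 and Birc5 are the second probes of genes with 2 kept probes, and the 60 bases of the Cenpa probe are spread over 471 bases of genome.
Mki67, chr7:142884764-142884823, minus strand: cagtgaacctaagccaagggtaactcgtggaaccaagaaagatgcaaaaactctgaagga
Birc5, chr11:117711112-117711171, plus strand: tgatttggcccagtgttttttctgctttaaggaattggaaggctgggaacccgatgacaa
Cenpa, chr5:30974916-30975386, plus strand: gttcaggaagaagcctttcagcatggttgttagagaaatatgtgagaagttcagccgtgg

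The promoters of the set share sequence features that were not used to choose it. Many division genes are known to carry CCAAT boxes, bound by NF-Y, and near the start site a cell cycle genes homology region with the core TTTGAA, through which the DREAM and MMB complexes act. In RefSeq windows of build GRCm38.p6, from 250 bases before to 50 bases after a start site and with 1 window per gene, 37 of the 44 members were found (not Aurkb, Ccna2, Cdc25c, Kif20a, Smc4, Spc24 or Tpx2). TTTGAA, searched on both strands, was present in 27 of 37 windows (73%), against 18.1% of all 27025 windows and 13.1% of those of the genes tested. CCAAT, also on both strands, was present in 29 of 37 (78.4%), against 37.9% of all windows. Both motifs were present in 25 of 37 (67.6%), against 7.12% of all windows. The members that fell in irradiated WT blood, described below, held both motifs in 5 of 8 windows, the tested members that did not pass in 10 of 14, and the members not tested in 10 of 15. The shares thus give no separation between members that fell and members that did not. A match describes the letters of the window and is no site.

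The following runs cover 120 bases before to 25 bases after the start site, 5′ to 3′ along the gene, for 3 members that fell and carry both motifs (Ccnb2, Ube2c and Cenpa), for 1 that carries both and was not called (Cdc20), and for Nusap1, whose window holds neither motif and which was called in all 3 genotypes. Capitals mark TTTGAA and CCAAT or their reverse complements TTCAAA and ATTGG.
Ccnb2, chr9:70421530-70421674, minus strand: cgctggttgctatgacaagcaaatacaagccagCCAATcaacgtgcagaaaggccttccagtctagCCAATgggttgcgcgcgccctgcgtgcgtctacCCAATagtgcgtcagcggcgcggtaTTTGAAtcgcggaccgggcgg
Ube2c, chr2:164769809-164769953, plus strand: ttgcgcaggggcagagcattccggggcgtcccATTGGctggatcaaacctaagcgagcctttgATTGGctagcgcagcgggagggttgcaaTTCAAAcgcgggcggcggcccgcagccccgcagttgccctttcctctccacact
Cenpa, chr5:30666766-30666910, plus strand: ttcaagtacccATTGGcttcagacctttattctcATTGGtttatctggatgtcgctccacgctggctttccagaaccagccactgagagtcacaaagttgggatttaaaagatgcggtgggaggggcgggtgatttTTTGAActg
Cdc20, chr4:118437319-118437463, minus strand: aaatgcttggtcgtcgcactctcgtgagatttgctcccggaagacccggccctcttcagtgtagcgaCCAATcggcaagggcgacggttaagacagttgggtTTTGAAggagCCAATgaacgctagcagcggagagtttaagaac
Nusap1, chr2:119618178-119618322, plus strand: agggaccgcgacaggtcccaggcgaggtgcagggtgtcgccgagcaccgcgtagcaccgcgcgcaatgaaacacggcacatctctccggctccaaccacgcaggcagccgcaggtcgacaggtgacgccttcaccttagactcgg

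The first comparison was that of WT mice at 8 Gy with WT mice at 0 Gy. In irradiated WT blood 11 of the 27 tested members fell and none rose, as called at an adjusted p under 0.05 (limma, Benjamini-Hochberg over all 15158 genes). In the same comparison 6.08% of all genes tested were called lower and 1.14% higher. At an unadjusted p under 0.05, 12 members were lower and 1, Espl1, was higher, against 14.8% and 5.92% of all genes. The median log2 fold change was -0.80 over the 27 members and -0.02 over all genes, and 20 of the 27 members had the lower mean after irradiation, against 51.2% of all genes. When arrays were scaled to the spike-in probes, a median of 1.21 over all genes moved every value upwards: the median of the members was then 0.43, 5 members were called lower and 1, Espl1, higher, so that the members lay below the other genes under both scalings while the sign of their median differed. For 9 of the 27 members every irradiated mouse lay below every control, against 3.94% of all genes, and for 0 members above, against 1.21%. These 9 are the called members other than Cenpa and Tpx2. Spc24, counted among the 11 and the 9, passed the filter through the WT 0 Gy arrays alone, where it is high. Without the 4 arrays bright in liver transcripts 10 members were called, Cenpa (-1.17 ± 0.38) being the one lost.

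Nusap1, a microtubule-binding protein that bundles spindle fibres around chromosomes, had the largest change. Its log2 level, on a scale where the 75th percentile of each array is 0, ran from 3.62 to 5.77 with a median of 4.95 in the 6 WT 0 Gy mice, and was 0.26, 0.19, 1.01, 1.16 and 1.55 in the 5 WT 8 Gy mice. Every irradiated mouse lay below every control. Nusap1 fell by 4.02 ± 0.45 on the log2 scale (SE of the limma fit, adjusted p = 4.33e-07). Ccna2, cyclin A, which drives S phase and entry into mitosis, fell by 3.84 ± 0.43 (limma, adjusted p = 4.33e-07). Its levels ran from 1.74 to 3.86 (median 3.44) at 0 Gy and were -0.97, -1.77, -0.33, -0.39 and -0.04 at 8 Gy. The second cyclin that passed was Ccnb2, a B-type cyclin, whose levels ran from 1.19 to 4.21 (median 3.21) at 0 Gy and were 0.77, -0.82, 0.34, 0.42 and 0.47 at 8 Gy. It fell by 2.87 ± 0.48 (limma, adjusted p = 0.000109). The other B-type cyclin, Ccnb1, did not pass: its values overlapped, with a range of -2.87 to -1.61 at 0 Gy and of -3.65 to -1.75 at 8 Gy, and the means differed by 0.05 ± 0.47. Its probe was well above background on only 3 of the 6 WT 0 Gy arrays and passed the filter through WT 8 Gy alone. The small difference is thus no measure of an unchanged level.

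Among the genes of anaphase and mitotic exit, 3 of 5 fell. Ube2c, the ubiquitin-conjugating enzyme that starts the chains built by the anaphase-promoting complex, had levels of 5.77 to 7.99 (median 7.28) at 0 Gy and of 3.23, 3.02, 4.25, 4.48 and 4.84 at 8 Gy, with no overlap. It fell by 3.23 ± 0.43 (limma, adjusted p = 4.01e-06), and its second probe differed by -3.22. Pttg1, the securin that holds separase inactive, had levels of 7.25 to 9.64 at 0 Gy and 5.28 to 6.59 at 8 Gy, again without overlap, and fell by 2.66 ± 0.55 (limma, adjusted p = 0.00142). Cdca3, a trigger of mitotic entry, ranged from -1.70 to 0.30 in controls and from -3.68 to -1.96 after 8 Gy, and it fell by 2.51 ± 0.52 (limma, adjusted p = 0.00151). The remaining 2 did not pass. Cdc20, the activator of the anaphase-promoting complex, differed by -0.10 ± 0.38, and every 8 Gy value but 1, the lowest at -2.01, lay inside the 0 Gy range of -1.29 to 0.13. Espl1, the separase that cuts cohesin, was not well above background on any WT 0 Gy array and was so on all 5 WT 8 Gy arrays. Its measured means were -2.92 and -1.38, and its level at 8 Gy was at least 1.57-fold higher (limma, adjusted p = 0.0545). A fold given as "at least" sets the bright mean against the lowest detected signal of the dim arrays, or the probe's own where that is higher. Under 3 alternatives (the percentile over probes detected on all arrays, array weights and spike-in scaling) Espl1 was called higher, but it passed the filter through the WT 8 Gy arrays alone, the group where it is high, so the call is no independent result.

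Of the 4 tested kinetochore and centromere genes 2 fell. Spc24, a subunit of the NDC80 complex that binds microtubules, ran from -1.90 to -0.22 at 0 Gy and from -4.38 to -1.93 at 8 Gy, ranges that lie side by side, and fell by 1.87 ± 0.50 (limma, adjusted p = 0.017). Spc24 passed the filter through the WT 0 Gy arrays alone, the group where it is high, so the call is no independent result. Cenpa, the histone H3 variant that marks centromeres, ran from -1.37 to 0.02 at 0 Gy and was -1.07, -2.22, -2.06, -1.53 and -1.92 at 8 Gy. These 2 groups overlapped, and Cenpa fell by 1.18 ± 0.32 (limma, adjusted p = 0.0175). Cenpe, a kinetochore motor, differed by -0.92 ± 0.43 and Spc25, the partner of Spc24, by -0.35 ± 0.28, and neither passed (limma, adjusted p = 0.22 and 0.512).

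Further falls were those of Mki67, Birc5 and Tpx2. Mki67, the nuclear protein that coats mitotic chromosomes, had levels of 1.28 to 3.61 at 0 Gy and -0.87 to 0.86 at 8 Gy, without overlap, and fell by 2.55 ± 0.46 (limma, adjusted p = 0.00025). Birc5, or survivin, the inhibitor-of-apoptosis protein of the chromosomal passenger complex, ranged from 0.29 to 1.76 in controls and from -1.27 to 0.21 after 8 Gy, and it fell by 1.72 ± 0.36 (limma, adjusted p = 0.00189). Tpx2, which activates Aurora A on the spindle, ran from -2.31 to 0.46 at 0 Gy and from -3.21 to -2.25 at 8 Gy, with a small overlap, and fell by 1.79 ± 0.47 (limma, adjusted p = 0.0144). The second probes of Mki67, Birc5 and Pttg1 differed by -2.28, -1.66 and -2.20, close to the first. For Racgap1, not called, the 2 kept probes were less alike. The second differed by -0.30 in WT, -0.06 in Atm and -0.77 in Scid, and the first by -0.80, -0.72 and 0.00.

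The other 16 tested members did not pass in WT, among them Ccnb1, Cdc20, Cenpe, Espl1 and Spc25. The kinase Plk1 differed by -0.35 ± 0.60, the spindle checkpoint protein Mad2l1 by -0.42 ± 0.29 and the passenger protein Cdca8 by 0.13 ± 0.40. The 4 tested genes of the central spindle and cytokinesis (Anln, Kif20a, Prc1 and Racgap1) lay between -0.80 and 0.65, and none of them was called. The spindle genes Kif22 and Hmmr differed by -0.10 ± 0.34 and 0.23 ± 0.33, and the condensin subunits Smc2 and Smc4 by -0.36 ± 0.46 and -0.91 ± 0.45.

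**Figure D2:**
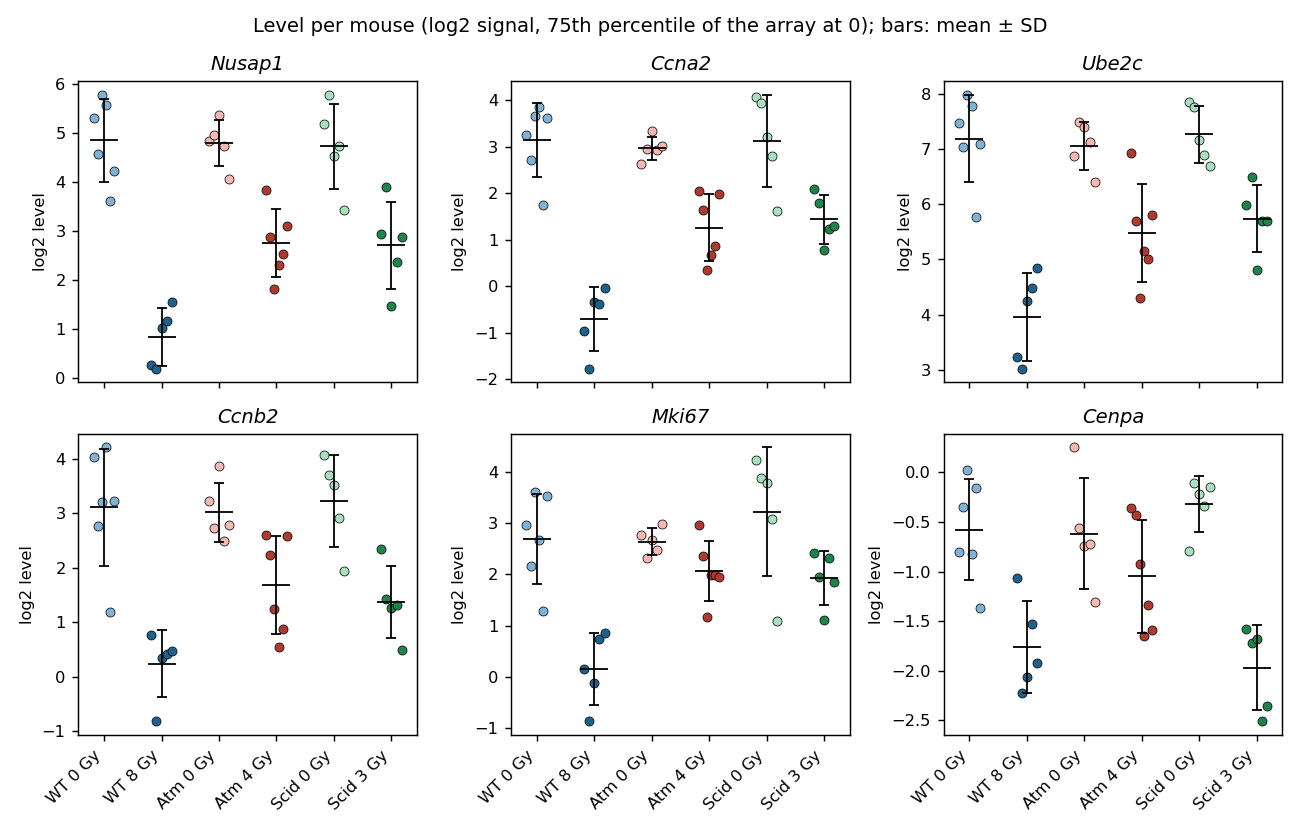
Log2 level of 6 division genes in every mouse (75th percentile of the array at 0), by group, with the mean and SD as bars. Nusap1, Ccna2, Ube2c, Ccnb2 and Mki67 were lower in all 5 WT 8 Gy mice than in all 6 WT 0 Gy mice, Cenpa overlapped, and with arrays scaled to spike-in probes the Cenpa difference was 0.06.

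The falls of Spc24, Tpx2 and Cenpa rested on single arrays: Spc24 no longer passed when replicate 4 at 0 Gy or replicate 3 or 5 at 8 Gy was left out, Tpx2 when replicate 3 at 0 Gy was, and Cenpa when replicate 3 at 0 Gy or replicate 2 at 8 Gy was, with changes of -2.10 to -1.49, -2.06 to -1.51 and -1.35 to -1.06 over all single omissions. With normexp background correction in place of the scanner's, 3 of the 11 passed (Ccna2, Cdca3 and Cenpa), and Nusap1 changed by -2.19 ± 0.63, Ube2c by -1.76 ± 0.82 and Ccnb2 by -1.13 ± 0.43. With the brightness of the array as a covariate 6 of the 11 passed (Ccna2, Ccnb2, Cdca3, Mki67, Nusap1 and Ube2c). All 11 were lower at 8 Gy on each of the 2 slides and each of the 2 scan days that held both WT groups. The 11 were called on these same arrays, so this is no independent result, and each slide held 1 array per group. Of all genes 55.3% and 62.9% were lower on the slides and 55.7% and 49.9% on the days. Nusap1 differed by -5.51 and -5.39 on the slides and by -4.96 and -3.81 on the days.

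The same comparison in Atm mice, 4 Gy against 0 Gy, gave 1 call among the 27 members. Nusap1 fell by 2.05 ± 0.45 (limma, adjusted p = 0.0443), while 0.165% of all genes were called lower and 0.0726% higher. Its levels were 4.84, 4.95, 5.36, 4.74 and 4.07 at 0 Gy and ran from 1.82 to 3.84 (median 2.70) in the 6 mice at 4 Gy, without overlap. Without overlap too were Ccna2, at 2.63 to 3.33 and 0.35 to 2.04, and Cdca3, at -0.62 to 0.01 and -1.89 to -0.69, so that 3 members lay wholly lower, against 1.7% of all genes, and 0 wholly higher, against 0.435%. The change of Ccna2 was -1.72 ± 0.43, that of Tpx2 -1.71 ± 0.47 and that of Ube2c -1.58 ± 0.43, and none of these passed (limma, adjusted p = 0.0658, 0.0869 and 0.0794). At 4 Gy Tpx2 was well above background on only 1 of the 6 arrays and Cdca3 on 3, whereas Ccna2 and Ube2c were so on all 6. At an unadjusted p under 0.05 there were 5 members lower and 0 higher, against 9% and 3.04% of all genes. Of the 27 members 22 had the lower mean, against 61.9% of all genes, with a median of -0.43 against -0.15 over all genes. The call on Nusap1 did not survive the omission of replicate 1, 2, 3 or 4 at 0 Gy or of replicate 3, 4 or 5 at 4 Gy, with changes of -2.26 to -1.86, and within the 2 slides shared by both groups Nusap1 differed by -1.0 and -0.97. The count of calls was 0 in each of these omissions, 3 when replicate 1 at 4 Gy was omitted and 2 when replicate 6 was, and with spike-in scaling, where the median of all genes was -1.46, it was 21, all lower. Without the 4 arrays bright in liver transcripts, 1 of them irradiated Atm, it was 0. The share of all genes called with spike-in scaling is not given here, so the 21 cannot be set against it.

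Scid mice at 3 Gy against 0 Gy gave 2 calls. Cenpa fell by 1.65 ± 0.33 (limma, adjusted p = 0.00964) and Nusap1 by 2.02 ± 0.47 (limma, adjusted p = 0.0224), while 1.03% of all genes were called lower and 0.0594% higher. Cenpa had levels of -0.79, -0.11, -0.22, -0.34 and -0.15 at 0 Gy and of -1.58, -1.72, -1.68, -2.51 and -2.36 at 3 Gy, so that every irradiated mouse lay below every control. Its probe was well above background on 4 of the 5 arrays at 0 Gy but on only 1 of the 5 at 3 Gy. Most of its 3 Gy values are thus signals not well above background, and the size of its fall is uncertain. Nusap1 had levels of 5.19, 5.78, 4.53, 4.74 and 3.43 at 0 Gy and of 2.94, 3.90, 1.47, 2.37 and 2.88 at 3 Gy, and the groups overlapped through 1 mouse on each side. Also without overlap were Ube2c (6.69 to 7.85 against 4.81 to 6.50) and Birc5 (1.09 to 2.28 against -0.31 to 1.01), which makes 3 members with Cenpa, against 2.23% of all genes, and 0 lay wholly higher, against 0.449%. Their changes of -1.53 ± 0.45 and -1.32 ± 0.38 did not pass, nor did those of Ccna2, -1.69 ± 0.44, and Ccnb2, -1.86 ± 0.50 (limma, adjusted p = 0.0869, 0.0849, 0.051 and 0.0585).

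At an unadjusted p under 0.05, 10 members were lower and 0 higher in Scid blood, against 7.94% and 1.67% of all genes. The lower mean was that of the irradiated mice for 24 of the 27, against 49.3% of all genes, with a median of -0.53 against 0.01. Leaving out 1 mouse moved the count of calls between 1 and 8: it was 8 when replicate 5 at 0 Gy was omitted, 4 when replicate 1 at 3 Gy was, and 1 when replicate 1 or 2 at 0 Gy or replicate 3 or 4 at 3 Gy was. Cenpa kept its call in all 10 of these omissions and Nusap1 in 6, but with spike-in scaling neither was called. With slide as a fixed block both lost the call, at -1.38 ± 0.35 for Cenpa and -1.90 ± 0.45 for Nusap1, and Ccnb2 (-2.01 ± 0.43) and Ccna2 (-1.84 ± 0.43) were called in their place, while with scan day as a block Cenpa alone was called, with Nusap1 at -1.69 ± 0.41. Without the 4 arrays bright in liver transcripts, which hold no Scid mouse but enter the shared estimate of spread, 6 were called (Birc5, Ccna2, Ccnb2, Cenpa, Nusap1 and Ube2c).

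**Figure D3:**
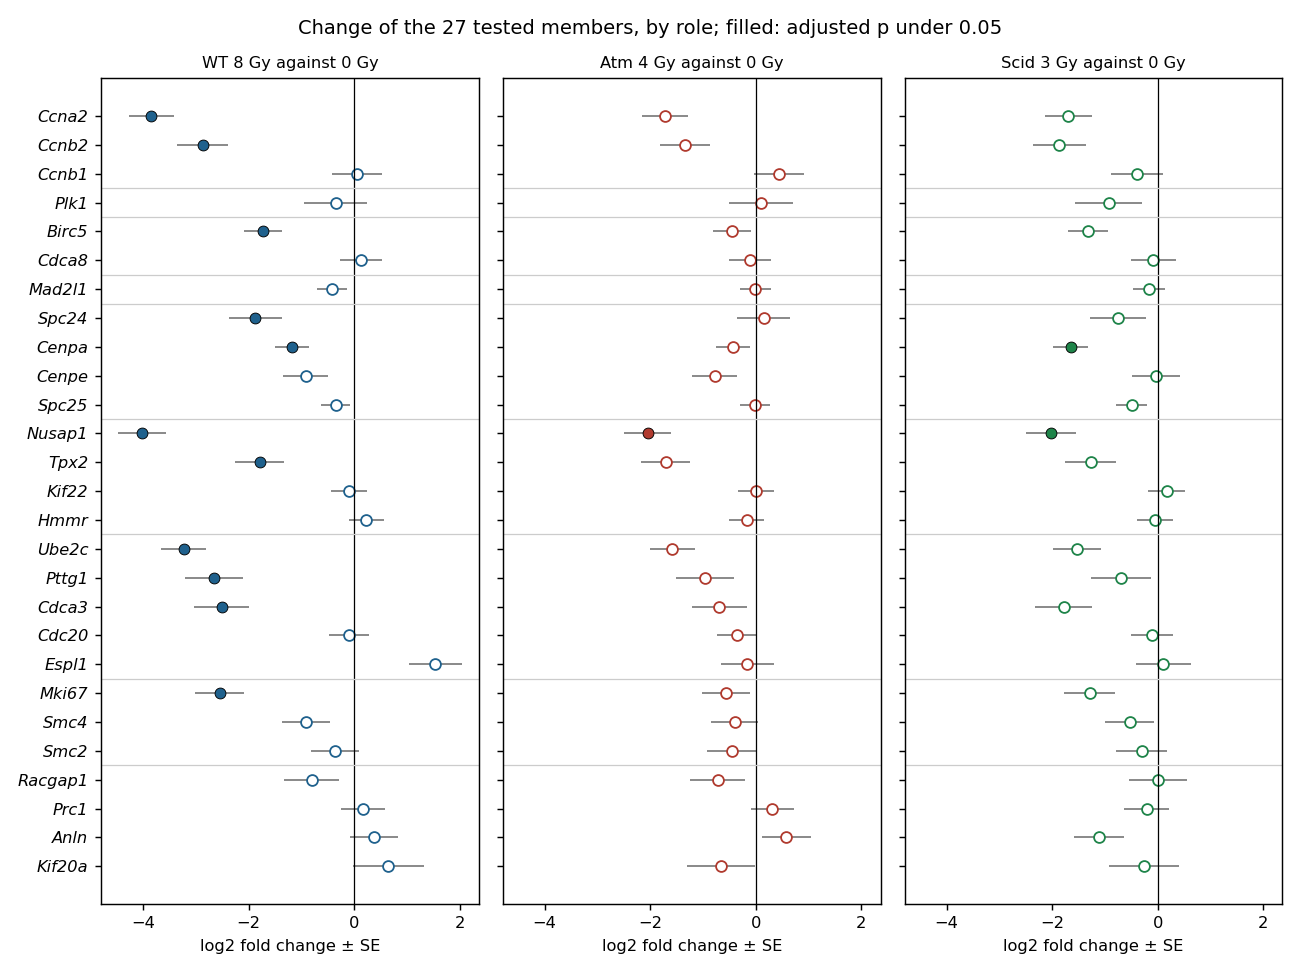
Log2 fold change with its SE for the 27 tested members in WT, Atm and Scid blood after irradiation, ordered by role from the cyclins (top) to the cytokinesis genes (bottom), with filled points where the limma adjusted p was under 0.05. There are 11 filled points in WT, 1 in Atm and 2 in Scid, all on the left of 0, and with spike-in scaling Cenpa in WT moves to 0.06.

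Before irradiation the genotypes did not differ in a member that passed the test. Against WT at 0 Gy, 0 of the 27 members were called in Atm and 0 in Scid mice by limma, as were 0 of all 15158 genes. At an unadjusted p under 0.05 there was 1 member in Atm, Espl1, and 0 in Scid, against 1.64% of genes higher and 0.627% lower in Atm, and 1.72% and 1.54% in Scid. Espl1 was not well above background on any WT 0 Gy array, so its level has only a bound there. It was well above background on only 2 of the 5 Atm 0 Gy arrays, so no size is given for the difference. The means of Nusap1 were 4.85 ± 0.85 (SD, n = 6) in WT, 4.79 ± 0.47 (n = 5) in Atm and 4.73 ± 0.87 (n = 5) in Scid. Other members differed more, with Spc24 at -1.01 ± 0.50 (SE) in Atm and Kif20a at 1.19 ± 0.67 in Scid, neither called. The median difference of the members from WT was 0.09 in Atm and 0.36 in Scid, against -0.01 and 0.08 over all genes. Of the 27 members 10 were lower than in WT in Atm and 7 in Scid.

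The difference between the responses was tested as an interaction. None of the 27 members, and no gene, was called for the Atm response minus the WT response or the Scid response minus the WT response. For Atm minus WT, 9 members had an unadjusted p under 0.05 on the side of a smaller fall in Atm and 1 on the other, against 5.09% and 3.4% of all genes. The largest was Ccna2, 2.13 ± 0.60 (limma, adjusted p = 0.376), followed by Spc24 at 2.02 ± 0.71, Mki67 at 1.98 ± 0.65 and Nusap1 at 1.97 ± 0.63. Spc24 passed the filter through WT 0 Gy alone, which in part sets its value. The 1 on the other side was Espl1, for which no size is given because its WT 0 Gy level is only a bound. For Scid minus WT the count was 4 (Ccna2, Nusap1, Pttg1 and Ube2c, from 1.70 to 2.15) and 1, against 3.85% and 3.29%. The 1 is Anln, which was not well above background on any Scid 3 Gy array, so that no size is given. The WT mice enter both differences, so these are not independent of each other, and the doses differed. The result for Atm minus WT depended on the scaling: with spike-in probes 16 members were called, all lower, where the median of all genes was -2.62, and with slide as a fixed block 1 was called, Ccna2 at 2.87 ± 0.60 (limma, adjusted p = 0.0439). The shares of all genes called in these 2 settings are not given here, so the 16 and the 1 cannot be set against them.

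Markers of red cell precursors moved in the same comparisons. Of 14 tested erythroid genes 10 fell in WT, 1 in Atm and 4 in Scid and none rose, with median log2 fold changes of -2.24, -0.94 and -1.28. The mean was lower after irradiation for 13 of the 14 in WT, 10 in Atm and 10 in Scid. Of all genes tested, 6.08% were called lower in WT, 0.165% in Atm and 1.03% in Scid, and 1.14%, 0.0726% and 0.0594% higher. Epb42, a protein of the red cell membrane, fell by 4.85 ± 0.47 in WT (limma, adjusted p = 8.15e-08), with changes of -2.45 in Atm and -2.73 in Scid, both called. The median log2 of the summed level of the list was 12.44 in WT 0 Gy and 11.36 in WT 8 Gy. It was 12.56 and 12.43 in Atm and 13.19 and 12.89 in Scid, 0 Gy first. Ranges of these sums are not given. A sum omits any gene whose spot was left out as an outlier on that array, so the lowest sum of a group can be too low. One list member, Ank1, was not well above background on any WT 8 Gy array. Of 9 tested B cell genes 3 fell in WT, 1 in Atm and 0 in Scid, and of 8 T cell genes 1 fell in WT (Cd8a). Their median summed levels in WT, 0 Gy first, were 5.27 and 3.95 for B cells and 6.77 and 6.26 for T cells. Of 6 monocyte genes 2 rose in WT, and of 4 neutrophil precursor genes 1 fell. None of 6 natural killer, 6 neutrophil, 4 progenitor, 6 platelet, 4 hepatocyte or 3 heart muscle genes was called in any of the 3 comparisons. At the shares of all genes called, lists this short can hold no call. The part of the cell types in the changes of the division genes was not tested.

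The division genes that fell differed in how they followed the erythroid genes from mouse to mouse. After the mean of each group had been taken off, so that the effect of irradiation was removed, the deviation of Ccna2 correlated with that of the median erythroid gene at r = 0.94 over the 32 arrays (Spearman rho = 0.94), that of Ube2c at 0.91 and that of Nusap1 at 0.85. Mki67 followed at 0.82, Pttg1 at 0.77 and Ccnb2 at 0.73, whereas Birc5 was at 0.54, Tpx2 at 0.53, Cdca3 at 0.47, Spc24 at 0.13 and Cenpa at -0.16. Thus 6 of the 11 members that fell in WT were above 0.7, as were 0 of the 16 that were not called, whose highest was Cenpe at 0.56 and whose median was 0.24, and 6.04% of all genes tested. These counts were 5 and 0 without the 2 arrays farthest from the median on the erythroid axis (Ccnb2 was then at 0.62), 6 and 0 within the 15 arrays of the first scan day, with Spc24 above 0.7 and Ccnb2 at 0.56, and 8 and 4 within the 12 of the second. The 4 uncalled members above 0.7 on the second day were Cdca8, Cenpe, Kif22 and Smc2, so the separation of called from uncalled members did not hold there. The 6 members above 0.7 over all arrays were also well above background on all 32, whereas uncalled members such as Espl1 and Anln were so on 14. Racgap1, uncalled and well above background on all 32, was at 0.33. The part of signal strength in this split was not tested. Without the 2 farthest arrays r was 0.92 for Ccna2, 0.88 for Ube2c and 0.83 for Nusap1, on the first day 0.91, 0.90 and 0.86, and on the second 0.95, 0.98 and 0.98. For Cdc20, at 0.06 over all arrays, it was -0.75 on the first day and 0.70 on the second, and for Cenpa -0.09 and -0.25. Such values are descriptions, since the genes share the RNA, the array and its scaling constant, and the brightness of the array correlated with Ube2c at -0.64 and with Nusap1 at -0.51 in the same deviations. Among each other, the 27 members had a median pairwise r of 0.27 over 351 pairs, and the 11 that fell one of 0.47 over 55 pairs.

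**Figure D4:**
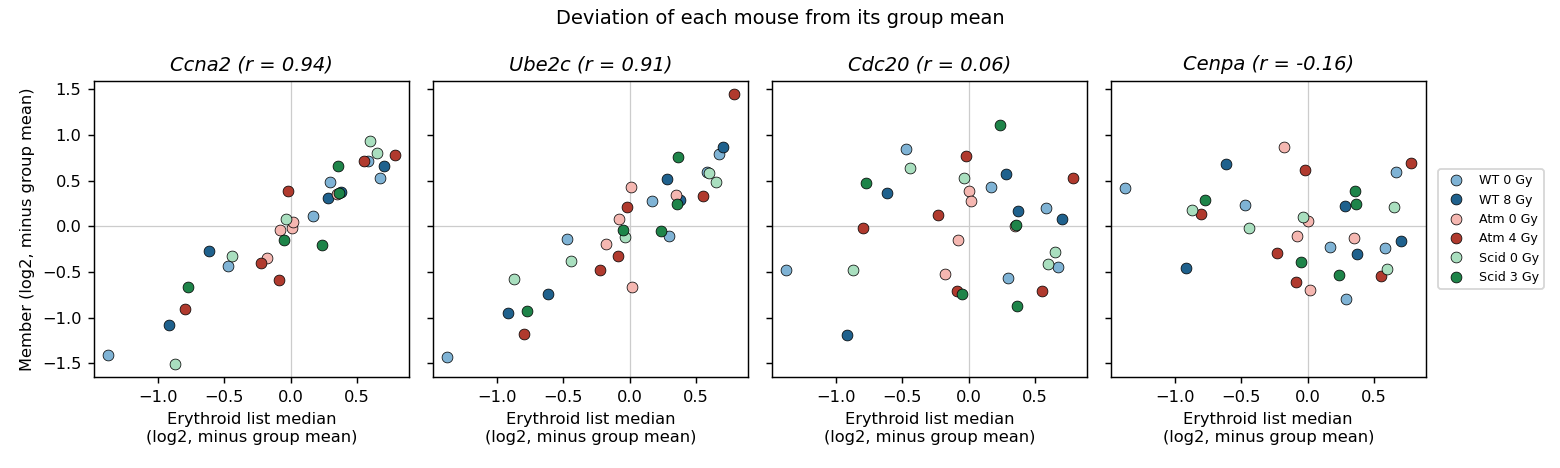
Deviation of each mouse from its group mean for Ccna2, Ube2c, Cdc20 and Cenpa (vertical axes, log2) against the deviation of the median of 14 erythroid genes (horizontal axes, log2), coloured by group. Ccna2 (r = 0.94) and Ube2c (r = 0.91) lie along a rising line over all groups, while Cenpa (r = -0.16) and Cdc20 (r = 0.06, from -0.75 and 0.70 within the first and second scan day) do not.

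Other cell cycle genes put the set in context, taken from lists that hold no member, with 6.08% of all genes called lower in WT. Of 17 transcription factors of the cell cycle 3 fell in WT and none rose: E2f2, an E2F activator, by 4.07 ± 0.53 (limma, adjusted p = 3.63e-06), its partner Tfdp2 by 3.21 ± 0.40 and the pocket protein Rb1 by 1.51 ± 0.44. Of 26 tested genes among 60 further mitotic genes 2 fell, a share of 7.69% that is near that of all genes. They were the phosphatase Cdc25b, which activates Cdk1, at -3.56 ± 0.47 (limma, adjusted p = 3.67e-06) and the centromere protein Cenpq at -2.42 ± 0.46. A further one, the p53-responsive Gtse1, rose by 1.96 ± 0.54 (limma, adjusted p = 0.0216), a call that did not hold when replicate 1 at 0 Gy or replicate 4 or 5 at 8 Gy was omitted. The median of these 26 genes was -0.24.

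Of 12 tested subunits and partners of the anaphase-promoting complex 4 fell in WT, led by the coactivator Fzr1 (Cdh1) with a fall of 2.79 ± 0.41, the chain-extending enzyme Ube2s with a change of -1.83 ± 0.42 and the subunit Anapc13 with a change of -1.37 ± 0.33. Of 21 tested DNA replication genes 5 fell, led by Uhrf1, which maintains DNA methylation, at -2.21 ± 0.49, the helicase subunit Mcm2 at -1.74 ± 0.35 and the ligase Lig1 at -1.72 ± 0.44, the last not called when replicate 1 at 8 Gy was omitted. Of 11 tested G1 cyclins, kinases and inhibitors 3 fell, among them the inhibitor Cdkn2c at -1.90 ± 0.35 and cyclin E1 (Ccne1) at -1.40 ± 0.44. Ccne1 passed in 5 of 11 single omissions and Rb1 in 6 of 11, and neither passed without the 4 arrays bright in liver transcripts (-0.74 and -1.43). The inhibitor Cdkn1a (p21), a p53 target, rose by 3.85 ± 0.51 in WT (limma, adjusted p = 4.48e-06) and by 3.20 ± 0.54 in Scid (adjusted p = 0.003), and it is the 1 gene of these lists that rose in Scid. In Atm none of the 5 lists held a called gene, and in Scid the other call was that of Cenpq, which fell by 2.14 ± 0.48. With spike-in scaling, which raised the median of all genes in WT to 1.21, the calls in WT were 2 lower and 3 higher for the transcription factors, 1 and 3 for the further mitotic genes, 1 and 2 for the anaphase-promoting complex, 0 and 1 for replication and 0 and 4 for the G1 genes. The shares of all genes called with that scaling are not given here, so these counts cannot be set against them.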

How the data were processed

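Blood RNA of 32 mice was measured on 1 array each. The authors deposited scanner tables whose processed signal is an intensity, background-subtracted by Agilent Feature Extraction (11.5.1.1 per the file headers, 12.0.2 per the submitters' processing notes), and a table of log2 values of the same arrays, used as an alternative. How those log2 values were centred is not given in the sources used here.

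Control spots and outlier spots were left out, spots of a probe averaged and log2 signals set to the 75th percentile of each array. Probes were named by accession, symbol or synonym in a RefSeq table (27502, 3549 and 404 probes) and otherwise by the file (7974). The 18364 probes that stood well above background on 4 or more arrays of a group gave 15158 genes, each read through its brightest probe. Group means were fitted with limma 3.58.1 (R 4.3.3) over all arrays, and two-sided p-values were adjusted by the Benjamini-Hochberg method. The fit was tested on simulated data. The number of arrays and the signal over background limit the precision, and p-values cover the spread between mice. The labels do not say that replicate numbers pair mice, so the main fit used no pairing. Deviations of mice with the same number correlated at -0.72 to 0.35, which cannot decide whether mice were paired.

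Members and lists were chosen with earlier results of these data known. All members may be named, and of each cell cycle list up to 3 called genes of largest change in WT. A few other genes of these lists and of the cell type lists (Epb42, Cd8a, Ank1) were named after their values were seen. Alternatives changed the background correction, scaling, filter, probe rule, batch terms and arrays used, and the normexp offset was 50.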

Additional observations from a re-analysis of the deposited data

Results flagged for a closer look

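An array far from the others was sought in 72 sets of values. Each set held a member's levels, or the number of members well above background, in 1 of the 6 groups of 5 or 6 mice. Such an array was found in 6 sets, while chance alone gives one in about 5% of sets. All sets come from the same 32 arrays and are not independent, so the 6 cannot be tested against that rate. Ccnb2 was at -0.82 in WT 8 Gy replicate 2, where the nearest other mouse was at 0.34. Birc5 was at 0.29 in WT 0 Gy replicate 5, with the nearest at 1.33. Tpx2 was at -2.27 in Scid 0 Gy replicate 5, with the nearest at -0.34. Cdca3 was at -1.70 in WT 0 Gy replicate 5, nearest -0.35, and at -2.53 in Scid 0 Gy replicate 5, nearest -0.21. The number of members well above background in WT 8 Gy was 34 on 1 array, against 29 on the nearest. The values of Birc5, Cdca3 and Tpx2 come from 2 mice, WT 0 Gy replicate 5 and Scid 0 Gy replicate 5.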

How the results depend on the processing

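In WT, 11 members were called. The count was 6 with array brightness as a covariate, 3 with normexp (Ccna2, Cdca3 and Cenpa) and 6 of 7 tested with only probes detected on every array (fully detected). It was 6 with spike-in scaling (5 lower and 1, Espl1, higher). It was 7 with the array median, 7 with slide as a fixed block and 7 of 14 tested in the deposited log2 values. In Atm, where 1 was called, it was 2 with the percentile of detected probes, 4 with brightness, 5 with array weights, 0 without a filter, 0 with normexp, 3 with only fully detected probes, 2 with the replicate block, 21 with spike-ins, 4 with the array median, 0 with scan day, 0 with slide, 3 in the deposited values, 0 without the 4 arrays with bright liver transcripts, and 0 to 3 with 1 mouse left out. In Scid, where 2 were called, it was 9 with array weights, 1 without a filter, 0 with normexp, 4 with only fully detected probes, 5 with the replicate block, 0 with spike-ins, 5 with the array median, 1 with scan day, 6 in the deposited values, 6 without the 4 liver-bright arrays, none of which is a Scid array, and 1 to 8 with 1 mouse left out. For the Atm minus WT response, where 0 were called, it was 16 with spike-ins and 1 with slide. The sign turned in WT for Cenpa with spike-ins (0.06) and with normexp for Anapc13 (0.03) and Gtse1 (-0.03). The replicate block changed no other count by over 1.5 times. The counts of the 0 Gy comparisons and of the Scid minus WT response stayed at 0 under the alternatives run. The shares of all genes called under each alternative are not given here, so the counts of members cannot be set against them.

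In WT, Ccna2 kept its call under all 16 alternatives, Nusap1, Ube2c and Ccnb2 under all but normexp, Cenpa under 7 of 15, Tpx2 under 6 of 14 and Spc24 under 5 of 14. The causes were not tested. Signal over background is the limit for the 17 members not tested.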
